A study of Mus musculus with 3 samples.

Results

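The genes described here encode the cytoplasmic actins and 8 proteins that bind actin or link it to the membrane, as read by ribosome footprints in cultured mouse cortical neurons. The 10 genes were chosen by symbol: the actins Actb and Actg1, the cofilins Cfl1 and Cfl2, the profilins Pfn1 and Pfn2, the beta-thymosins Tmsb4x and Tmsb10, the drebrin gene Dbn1, and Marcks. All 10 were found among 20805 genes that had a 5′ UTR, a coding sequence (CDS) and a 3′ UTR in the count tables, and the longest transcript was taken for each gene. Primary cortical neurons were left untreated (WT), were given cycloheximide for 2 min (Chx), or were given harringtonine for 2 min with a cycloheximide pulse after it (Harr). Neither age nor genotype is given in the labels. The free-text descriptions of the samples name depolarized neurons, which the treatment labels do not. Each library came from 3 pooled dishes, and buffers used to rinse and lyse the cells held 100 μg/ml cycloheximide in every group, WT included. With 1 library per treatment no difference has a replicate check, no test was made, and every interval covers counting error only.

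Actin monomers assemble into filaments that shape growth cones, axons and dendritic spines, and the pool of free monomers is set by proteins that bind them. Profilins load monomers for addition to growing ends, beta-thymosins hold monomers in reserve, and cofilins sever and disassemble old filaments. Drebrin binds along filaments and is abundant in spines, while MARCKS ties the actin cortex to phosphoinositides of the plasma membrane. In ribosome profiling each read is an mRNA fragment that a ribosome shielded from nuclease. Cycloheximide stops elongating ribosomes where they are, whereas harringtonine stops ribosomes that have just begun at a start codon and lets earlier ones run on towards the stop codon.

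Aligned reads numbered 35722483 for Chx, 9754412 for Harr and 30219197 for WT, so that low counts were least precise in Harr. The neuron markers Map2, Tubb3 and Rbfox3 had reads in every library. Per 1000000 aligned reads of Chx, Harr and WT, the CDS reads of Map2 were 2075, 2904 and 2231, those of Tubb3 894, 270.4 and 827, and those of Rbfox3 14.1, 5.54 and 14.7. The astrocyte markers Aldh1l1, Slc1a3 and Gfap summed to 186, 76.1 and 203. The smooth muscle and stromal markers Acta2, Tagln, Myh11 and Cnn1 summed to 8.43, 4.00 and 6.22, with Cnn1 at 0 reads in Harr. The microglia markers Cx3cr1, P2ry12 and Tmem119 summed to 0.700, 0 and 0.430, where a count of 0 in Harr allows up to 0.308 per 1000000. Map2 and Myh11 (1.12, 1.33 and 0.695) were thus highest in Harr, whereas Tubb3, Rbfox3, the astrocyte markers and the other stromal markers were lowest there. The place of Myh11 rests on 40, 13 and 21 reads in Chx, Harr and WT, and that of Tagln on 6 reads in Harr. The part of these shifts in the results was not tested.

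Reads entered the tables by the position of their 5′ end, so a footprint centred on a start codon is counted before that codon. The stretch around the start codon therefore decides how initiating ribosomes of each gene fall into 5′ UTR and CDS. It is shown for members in which an intron lies close to that codon, as the 15 transcript bases before it and the 15 that begin with it, 5′ to 3′, with the annotated start codon in capitals (GENCODE M21 transcripts, mm10).
Actb: cgccaccagttcgccATGgatgacgatatc
Actg1: ccttcgccgatcgcaATGgaagaagaaatc
Cfl1: ttcgtttccggaaacATGgcctctggtgtg
Cfl2: tcagccgcgggcactATGgcatctggagtt
Tmsb4x, longest transcript: tgttaacattccgcaATGctccttccagca
Tmsb4x, transcript with the most reads: ctccttccagcaaccATGtctgacaaaccc
Tmsb10, transcript with the most reads: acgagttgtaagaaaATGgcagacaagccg
In Actb (chr5:142903115-142906754, minus strand) and Actg1 (chr11:120345690-120348542, minus strand) only the last 6 bases before the start codon share its exon. In Cfl1 (chr19:5490455-5495201, plus strand) and Cfl2 (chr12:54858817-54862877, minus strand) the start codon is the last 3 bases of the first exon. The 15 bases before the start codon of the Tmsb4x transcript with the most reads lie inside the CDS of the longest Tmsb4x transcript (chrX:167207292-167208827, minus strand), whose CDS is 153 nt against 135 nt. Reads at the shorter frame's start codon are thus CDS reads on the longest transcript. Only Tmsb4x and Tmsb10 had a transcript with more reads than the longest.

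Coding-region footprint density ranged widely among the 10 genes, and Tmsb4x and Actb had the highest values in every library. Density is given as RPKM, CDS reads per kilobase of CDS and per 1000000 aligned reads, with an exact Poisson 95% interval. Tmsb4x had an RPKM of 6393 (6326 to 6461) in Chx, 10648 (10484 to 10815) in Harr and 8039.9 (7958 to 8122) in WT. It had rank 1 among all genes in each library. Actb, the beta actin gene, had 3709 (3690.0 to 3728), 1767 (1742 to 1792) and 3590.3 (3570.2 to 3610.5), rank 4 in Chx and WT and rank 5 in Harr. Cfl1 followed with 1715, 487 and 1872 RPKM and was lower in Harr than in the other libraries by more than its counting intervals. Actg1, the gamma actin gene, had 616, 143 and 589 RPKM. Marcks stood close to it with 584, 244 and 563, and Tmsb10 had 542, 590.0 and 512. Pfn1 and Pfn2 lay together at 377 and 391 RPKM in Chx and at 398 and 369 in WT, whereas in Harr Pfn1 was at 110 (99.7 to 120.1) and Pfn2 at 155 (143 to 168). Cfl2, the cofilin better known from muscle, had 177, 83.7 and 212 RPKM. Dbn1 was the lowest member in Chx and WT, at 71.3 (69.4 to 73.3) and 74.6 (72.5 to 76.8), and reached 92.8 (88.7 to 97.1) in Harr.

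The order of the members by RPKM was the same in Chx and WT except for the profilins. In Chx, Actg1 (609 to 624), Marcks (576 to 592) and Tmsb10 (521 to 563) followed each other with intervals that did not overlap, and they kept this order in WT. Pfn1 (367 to 387) and Pfn2 (381 to 401) overlapped in Chx, whereas in WT Pfn1 (387 to 409) stood above Pfn2 (359 to 380). In Harr, Tmsb10 stood above Cfl1, and Actg1 (136 to 150.1) stood below Marcks and level with Pfn2 within the counting intervals. The intervals of Dbn1 and Cfl2 (75.8 to 92.2), the lowest members in Harr, also overlapped. Together the 10 genes took 1.40% (Chx), 1.21% (Harr) and 1.46% (WT) of all CDS reads, and Actb alone gave 53.0%, 42.5% and 50.2% of these.

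**Figure D1:**
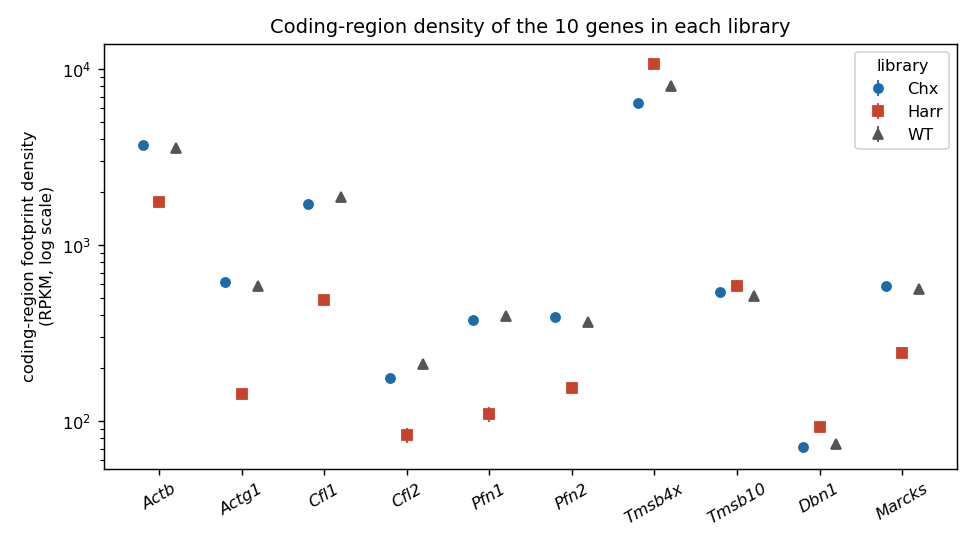
Coding-region density of the 10 genes (x axis) as RPKM on a log axis, with 1 point per library and exact Poisson 95% intervals, most of which are smaller than the points. Tmsb4x and Actb sit at the top in every library, and 7 of the 10 genes have their lowest point in Harr.

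Near-identical copies limit how far reads can be placed on some members. Actb and Actg1 share 1000 of 1128 coding bases (88.7%), and their longest identical run is 62 bases. Of the 25-base words in the Actg1 CDS, 97.9% also occur in transcripts of other genes, and 92.9% occur in the gene model Gm12715. The share was 53.6% for Actb, 71.7% for Cfl1 and 100% for Tmsb10, against 3.55% for Pfn1, 0.283% for Dbn1 and 0 for Cfl2, Pfn2, Tmsb4x and Marcks. The study's methods let a read align to several places for its ORF search, but whether these tables kept such reads is not given in the sources used here, so the levels of Actg1, Actb, Cfl1 and Tmsb10 are uncertain. The pairs of cofilins, profilins and beta-thymosins share 71.5%, 61.5% and 70.4% of their coding bases, with no identical run longer than 12 bases.

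Reads before the start codon were more frequent relative to the CDS in Harr than in Chx for every member. The actins are given first. In Chx, Harr and WT, Actb had 10470, 5424 and 8141 reads in its 5′ UTR and 149445, 19438 and 122383 in its CDS. Dividing the first by the second gave 0.0701, 0.279 and 0.0665. Actg1 had 475, 541 and 416 5′ UTR reads, and ratios of 0.0191, 0.344 and 0.0207. On the log2 scale, Harr exceeded Chx by 1.99 (SE 0.03 from counts) for Actb and by 4.17 (SE 0.10) for Actg1. Both actins had nearly the same ratio in Chx and WT, with differences of 0.07 (SE 0.02) and -0.12 (SE 0.10).

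Among the monomer-binding and severing proteins the ratio reached above 1 in Harr for 3 genes. Pfn2 had 1473, 1709 and 658 5′ UTR reads in Chx, Harr and WT beside 5904, 640 and 4718 CDS reads, and its ratio of 2.67 in Harr was the highest of the 10. Its 5′ UTR of 597 nt is longer than its CDS of 423 nt. Per nucleotide its 5′ UTR exceeded its CDS 1.89-fold in Harr, against 5.68-fold for Marcks and 4.79-fold for Cfl2. The ratio of reads in Pfn1 went from 0.0481 in Chx to 1.12 in Harr, with 0.0263 in WT. Cfl2 had only 120 and 45 5′ UTR reads in Chx and WT but 512 in Harr, beside 409 CDS reads. Its log2 change of 5.04 (SE 0.16) from Chx to Harr was larger than that of 98.4% of the genes tested, although 45.0% of the 25-base words of its 5′ UTR are shared with other genes. Cfl1 had ratios of 0.0120, 0.186 and 0.00607. No read began within the lone start codon segment of Cfl1 or Cfl2 in any library, which allows a share of up to 0.126% of the 2378 Cfl1 and 0.733% of the 409 Cfl2 CDS reads in Harr. Reads that begin before the start codon are 5′ UTR reads by definition. All 25-base words that begin in that segment of Cfl1 also occur in other genes, whereas those of Cfl2 do not.

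Marcks, whose protein is a substrate of protein kinase C, had 3467, 5202 and 1894 5′ UTR reads in Chx, Harr and WT, and ratios of 0.179, 2.35 and 0.120. In Harr it had more reads before its start codon than in its 930 nt of CDS, which held 2211. Dbn1 had 333, 456 and 74 5′ UTR reads and ratios of 0.0616, 0.237 and 0.0155. Dbn1 was the member with the largest gap between Chx and WT, at 1.99 (SE 0.19) on the log2 scale.

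From Chx to Harr the beta-thymosins had the smallest changes of the members, on their longest transcripts. Tmsb4x had 84, 85 and 85 5′ UTR reads there, with a log2 change from Chx to Harr of 1.15 (SE 0.22), and Tmsb10 had 64, 45 and 26, with 1.25 (SE 0.29). On the transcripts with the most reads Tmsb4x had 5372, 6274 and 8080 5′ UTR reads and a change of 1.77, and Tmsb10 had 395, 626 and 143 and a change of 2.41. Of the Tmsb4x reads 5020, 5654 and 7289 began in the 15 bases printed before its start codon. In Tmsb10 the 12 bases next to the start codon held 13, 6 and 4 reads, and the 49-nt exon before them held 371, 611 and 132. Every 25-base word of that exon also occurs in other genes.

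All 10 members had a 5′ UTR:CDS ratio at least 2-fold (1 on the log2 scale) higher in Harr than in Chx, where 92.1% of 10711 genes tested did. The median change of the members was 3.57 against 2.46 over all genes. From WT to Harr the change was likewise at least 1 for all 10 members, where 96% of genes passed, with medians of 4.16 and 3.23. Chx exceeded WT by at least 1 in 2 members, Dbn1 and Cfl2 (1.43), where 34.7% of genes did. In both comparisons with Harr the share of members past the threshold was thus near that of all genes. Annotated UTR bases of Actb, Actg1 and Cfl1 overlap the CDS of another transcript in the tables.

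**Figure D2:**
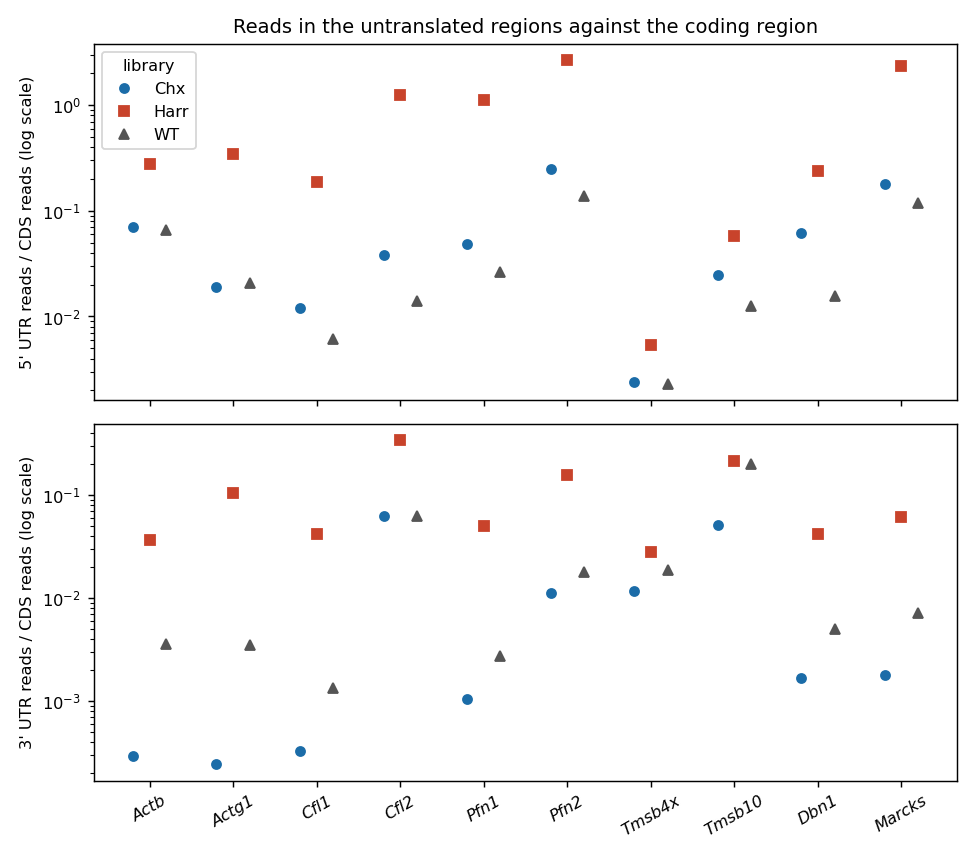
5′ UTR reads divided by CDS reads (top) and 3′ UTR reads divided by CDS reads (bottom) for each of the 10 genes on the longest transcript, on log axes, with 1 point per library. The Harr point is the highest of the 3 for every gene in both panels, and Chx lies below WT for every gene in the bottom panel.

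The exon segments show where within each gene the reads lay. In Actb the 6-base piece next to the start codon took 10061 of 10470 5′ UTR reads in Chx, 4353 of 5424 in Harr and 7786 of 8141 in WT. Its first 103 bases held 409, 1071 and 355. In Actg1 the equivalent 6 bases held 394, 362 and 374 reads and the first 118 bases 81, 179 and 42. The upstream exon of both actins thus had more reads in Harr than in Chx although the Harr library is less deep.

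Within the CDS, Harr reads of the actins gathered in the first coding segment. The first 123 coding bases of Actb are 10.9% of its CDS and held 43729 (Chx), 14690 (Harr) and 31298 (WT) reads. As a share of its CDS reads this was 29.3% (29.0 to 29.5, Wilson 95% interval), 75.6% (74.96 to 76.2) and 25.6% (25.3 to 25.8). The equivalent segment of Actg1 held 14.05% (13.6 to 14.5), 44.7% (42.3 to 47.2) and 20.4% (19.8 to 20.9). The second segment of Actb, of 240 bases, had 27069, 756 and 25056 reads, and that of Actg1 5136, 132 and 5038. The last segment of 144 bases held 4.94% of Actb reads in Chx and 7.31% in Harr, and 2.17% and 11.5% of Actg1 reads. Per CDS read of the library, Harr exceeded Chx in the first Actb segment by 0.85 (SE 0.01) on the log2 scale, and in the second it was lower by a log2 ratio of -2.74 (SE 0.05).

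The profilins have the same exon layout as each other, and Harr reads of both gathered in the first coding segment. In Chx, Harr and WT the first 132 bases of Pfn1 held 38.3%, 66.4% (61.9 to 70.6) and 35.9% of CDS reads, and those of Pfn2 37.5%, 75.5% (72.0 to 78.6) and 31.8%. The middle segment of Pfn1 went from 2389 reads in Chx to 72 in Harr, and that of Pfn2 from 3263 to 121. The first 102 bases of Marcks held 10.7%, 26.7% (24.9 to 28.6) and 12.2% of its CDS reads.

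Cofilin genes carry most of their CDS in a 308-base segment that follows the lone start codon, and shares there moved less. That segment held 83.3%, 87.7% and 84.8% of Cfl1 reads and 81.4%, 88.3% and 78.6% of Cfl2 reads in Chx, Harr and WT. In Tmsb4x the 115 bases that follow the 3-base first piece held 92.0%, 98.1% and 77.3% of CDS reads. All Tmsb10 CDS reads lay in its first 100 coding bases.

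Dbn1 has 15 coding segments and is the only member with a CDS above 2000 nt. Its first 86 bases held 404 (Chx), 245 (Harr) and 164 (WT) reads. Segments 3 to 7, with midpoints between 199 and 631.5 nt from the start of the CDS, held 493, 213, 392, 83 and 192 reads in Chx and 26, 13, 30, 1 and 14 in Harr. The 677-base segment 13 held 1704, 1003 and 1818 reads in Chx, Harr and WT. The last 71 bases held 146, 180 and 297. Per CDS read of the library, Harr was therefore higher than Chx in segment 1 by 1.70 (SE 0.12) on the log2 scale, lower in segment 3 by a log2 ratio of -1.80 (SE 0.29), level in segment 12 at 0.00 (SE 0.13) and higher in segment 15 by 2.72 (SE 0.16). Values between these were uneven, with segment 9 at 0.36 (SE 0.55) beside -0.51 in segment 8 and -0.65 in segment 10. Actb was likewise lower in its middle segments, but its last segment was at 0.04 (SE 0.04).

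**Figure D3:**
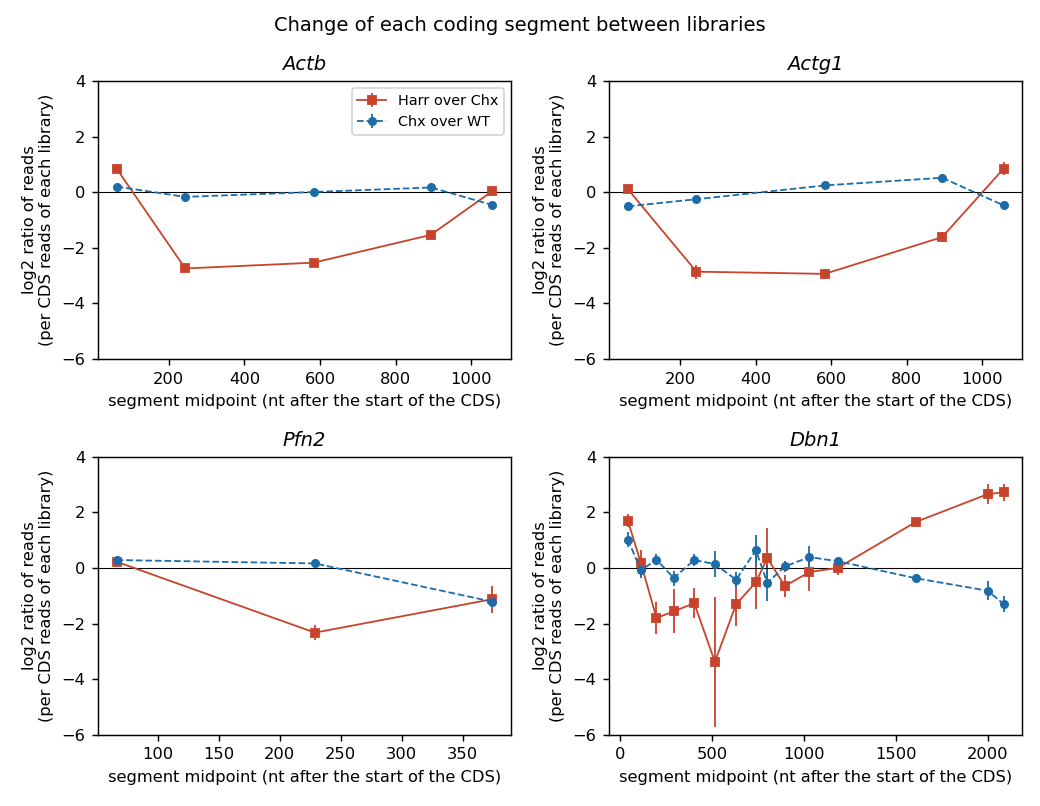
Log2 ratio of reads in each coding segment, per CDS reads of the library, against the distance of the segment's midpoint from the start of the CDS in nt, with 95% counting intervals, for Harr over Chx (squares) and Chx over WT (circles). In Actb, Actg1 and Pfn2 the first segment is near or above 0 and the middle below -1. In Dbn1 the line falls below 0 after segment 2, rises above it at segment 9 alone, is level at segment 12 and reaches 2.72 at the last.

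The first coding segment against the rest of the CDS could be computed for 9 members, since Tmsb10 had no read elsewhere in its CDS. It was at least 2-fold higher in Harr than in Chx in 6 of the 9, where 31.8% of 9790 genes were. The members were Actb (2.90, SE 0.03), Pfn2 (2.35, SE 0.14), Actg1 (2.31, SE 0.08), Tmsb4x (2.14, SE 0.09), Pfn1 (1.67, SE 0.15) and Marcks (1.61, SE 0.08). Dbn1 (0.86), Cfl2 (0.77) and Cfl1 (0.51) were below the threshold, and the median of the 9 was 1.67 against 0.28 over all genes. With WT as the reference 8 of the 9 passed, where 39.2% of 9478 genes did, with Dbn1 at 2.04 (SE 0.15), Cfl2 at 1.02 (SE 0.23) and Cfl1 below the threshold at 0.34. These segments differ in length among genes, and this measure was added after the counts had been seen. For Cfl1, Cfl2 and Tmsb4x the 3-base first piece was too short, so the next segment was used. That segment is 61.5%, 61.5% and 75.2% of the CDS. In Tmsb4x all other CDS reads lay in the last 35 coding bases, so its value is that of its last segment with the sign reversed.

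The CDS as a whole was compared per 1000000 CDS reads of each library. From Chx to Harr, 7 members were lower and 3 were higher. Actg1 was lowest, at -1.56 (SE 0.04) on the log2 scale, with 24839 reads in Chx and 1572 in Harr. Cfl1 followed at -1.27 (SE 0.03) and Pfn1 at -1.23 (SE 0.07). These 3 members were lower by at least 1, where 14% of 11447 genes were. Pfn2 (-0.78), Marcks (-0.71), Cfl2 (-0.53) and Actb (-0.52) were lower by less than 1. Tmsb4x, with 34943 and 15892 reads, was higher by 1.28 (SE 0.01) and alone passed 1 upwards, where 4.64% of genes did. Dbn1 was higher by 0.93 (SE 0.04) and Tmsb10 by 0.67 (SE 0.06). From WT to Harr the same 3 members were lower by at least 1, at -1.53 (Actg1), -1.43 (Cfl1) and -1.35 (Pfn1), where 14.7% of genes were. No member passed 1 upwards in that comparison, where 5.3% of genes did, and Tmsb4x was at 0.92 (SE 0.01).

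How the libraries were scaled set the level of these changes. The median of all genes was -0.05 from Chx to Harr and 0.00 from WT to Harr per CDS read, but -0.60 and -0.51 per aligned read, since fewer Harr reads lay in the CDS. Per aligned read Actb was at -1.07, below that shifted median, and Tmsb4x (0.74), Dbn1 (0.38) and Tmsb10 (0.12) remained above 0. On that scale 7 members were lower by at least 1 from Chx to Harr and 0 higher, where 31.4% and 0.559% of genes were. On its transcript with the most reads Tmsb4x was higher by 0.87, and then no member passed 1 upwards.

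Coding length went with the change across all genes, so members were also placed within classes of CDS length. The median change from Chx to Harr was -0.68 over 1669 genes under 600 nt, -0.54 over 3138 genes of 600 to 1200 nt, and 0.36 over 2646 genes of 2000 to 4000 nt. Of the members 5 lay above and 5 below the median of their class. Actb differed from it by 0.01 and lay above 1593 of 3138 genes. Actg1, of equal coding length, was lower than the class median by a log2 difference of -1.02, with 244 genes of the class below it. Tmsb4x (153 nt) was 1.97 above its class median and above 1640 of 1669 genes, and Tmsb10 (135 nt) was 1.35 above and exceeded 1549. Dbn1 was 0.56 above the median of its class. Pfn1 and Cfl1 were below theirs by differences of -0.55 and -0.59, Marcks and Pfn2 by -0.18 and -0.10, and Cfl2 was 0.15 above.

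**Figure D4:**
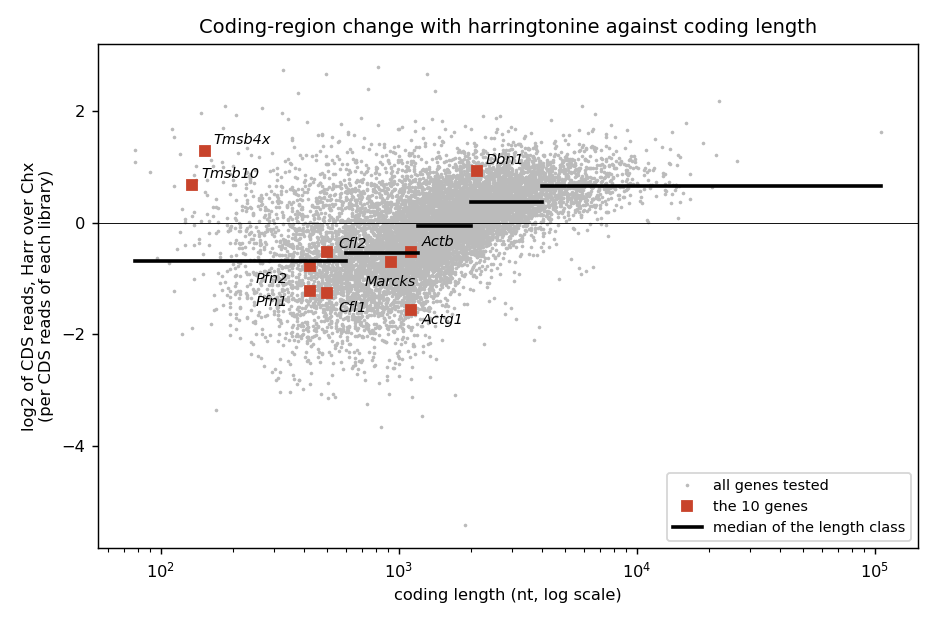
Log2 ratio of CDS reads from Chx to Harr, per CDS reads of each library, against coding length on a log axis, for 11447 genes (grey) and the 10 genes (squares), with the median of each length class as a bar. Tmsb4x and Tmsb10 lie at short lengths above 0, whereas Actg1, Cfl1 and Pfn1 lie below the bars of their classes.

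Paralogs of nearly equal coding length were compared directly. Actb exceeded Actg1 in RPKM 6.02-fold in Chx, 12.4-fold in Harr and 6.10-fold in WT. Its change from Chx to Harr was thus greater by 1.04 (95% counting interval 0.96 to 1.12) on the log2 scale. Without the segment that holds the start codon this difference was 0.14, with Actb at -2.05 and Actg1 at -2.19, and from WT to Harr it was -0.062. The gap between the actins thus lay in the first 123 coding bases, of which 4.88% of the 25-base words in Actb and 100% in Actg1 occur in other genes.

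Cfl1 exceeded Cfl2 9.71-fold in Chx, 5.81-fold in Harr and 8.81-fold in WT, a difference in change from Chx to Harr of -0.74 (-0.90 to -0.58). Pfn1 minus Pfn2 was -0.45 (-0.63 to -0.27) on the same scale, and 0.024 without the first segment. Tmsb4x exceeded Tmsb10 11.8-fold, 18.0-fold and 15.7-fold. The difference in their change from Chx to Harr was 0.61 (0.49 to 0.73) on the longest transcripts and 0.20 on those with the most reads.

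Between Chx and WT the CDS levels of the 10 genes differed little. No member differed by 1 or more in either direction, where 0.192% of genes were higher and 0.122% lower in Chx. The range ran from -0.37 (SE 0.01) for Tmsb4x and -0.30 (SE 0.04) for Cfl2 to 0.05 (SE 0.03) for Pfn2. Actb and Actg1 were at 0.01 and 0.03, and their difference was -0.02 (-0.05 to 0.01).

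Reads near the stop codon differed between Chx and WT in some members. Tmsb4x had 2780 of 34943 CDS reads (7.96%, 7.68 to 8.24) in its last 35 coding bases in Chx, 1.92% (1.72 to 2.14) in Harr and 8449 of 37173 (22.7%, 22.3 to 23.2) in WT. The last 98 bases of Pfn2 held 7.199% (6.57 to 7.89) in Chx, 5.63% in Harr and 17.2% (16.2 to 18.3) in WT, whereas those of Pfn1 held 19.7%, 17.7% and 18.8%. In Dbn1 the last 71 bases held 2.70%, 9.37% and 6.21% in Chx, Harr and WT. The last segment against the rest of the CDS was lower by at least 1 in Chx than in WT in 3 of 9 members, where 16.3% of 9878 genes were, namely Tmsb4x (-1.77), Pfn2 (-1.42) and Dbn1 (-1.25). Cfl2, Actg1 and Actb were lower by less than 1, at -0.80, -0.51 and -0.50, and Cfl1 and Pfn1 lay at 0.27 and 0.08. The last segment of Marcks (0.22) is 828 of its 930 coding bases and is thus not limited to the surroundings of the stop codon.

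The coding ends of the beta-thymosins are printed as their last 30 bases with the stop codon in capitals, since reads there differed between them (mm10, minus strand, last coding segments at chrX:167207501-167207535 and chr6:72957618-72957652).
Tmsb4x: gaacaagagaagcaagctggcgaatcgTAA
Tmsb10: gaacaggaaaagaggagtgaaatctccTAA
No read was counted in the last 35 coding bases of Tmsb10 in any library. A count of 0 allows a share of up to 0.115% of its 2613 CDS reads in Chx, 0.386% of 777 in Harr and 0.144% of 2090 in WT. All 25-base words that begin in this segment also occur in other genes, as do all those of the 100 bases before it, which did hold reads.

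In most members reads after the stop codon were scarce in Chx and more frequent in Harr and WT. In Chx, Harr and WT, Actb had 44, 711 and 438 3′ UTR reads and Actg1 6, 164 and 70. Relative to the CDS the ratio was 0.000294, 0.0366 and 0.00358 for Actb and 0.000242, 0.104 and 0.00349 for Actg1. Cfl1 had 10, 101 and 38 reads, Pfn1 had 6, 23 and 14, Dbn1 had 9, 80 and 24, and Marcks had 35, 136 and 113. In each of these 6 genes the Harr count was the highest although that library is the smallest. Pfn2 (67, 101 and 85) was also highest in Harr, whereas Cfl2 (197, 140 and 204) was lowest there. Their 3′ UTRs are 1322 and 2308 nt long. Tmsb10 had 136, 167 and 426 and Tmsb4x 414, 447 and 701, so that for the beta-thymosins WT held the most.

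All 10 members had a 3′ UTR:CDS ratio higher by at least 1 on the log2 scale in Harr than in Chx, where 88.9% of 5208 genes passed, and the median change was 4.83 against 3.76. Actg1 was highest at 8.64 (SE 0.58), resting on 6 reads in Chx, followed by Cfl1 (6.96) and Actb (6.94), and Tmsb4x was lowest at 1.25 (SE 0.10). Actg1, Cfl1 and Actb are also the members with UTR bases, in either UTR, that overlap the CDS of another transcript. From WT to Harr 8 of 10 members passed, where 84% of genes did. The other two were the beta-thymosins, at 0.58 (Tmsb4x) and 0.08 (Tmsb10). Chx lay below WT by at least 1 in 7 members, where 47.8% of 4583 genes did, led by Actg1 (-3.75, SE 0.59) and Actb (-3.59, SE 0.23). Cfl2 was at -0.03. Of the 25-base words of the 3′ UTR 39.2% in Actb, 20.7% in Cfl1 and 87.1% in Tmsb10 are shared with other genes.

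A wider set of 102 actin cytoskeleton genes in 8 role lists was followed to place the 10 genes, and 100 had enough CDS reads. From Chx to Harr 13 of the 100 were higher and 20 lower by at least 1 (4.64% and 14% of all genes), with a median of -0.12 against -0.05 over all genes. Per aligned read 3 were higher and 38 lower (0.559% and 31.4% of all genes), with a median of -0.67 against -0.60. Of 81 wider genes with enough 5′ UTR reads, 75 had a 5′ UTR:CDS ratio higher by at least 1 in Harr than in Chx, where 92.1% of all genes tested did, with a median of 2.48 against 2.46 over all genes, and the Arp2/3 list had the highest median, at 3.65. Lists differed in coding length, so each gene was also set against the median of its length class. All 10 genes for subunits of the Arp2/3 complex, which nucleates branched filaments, were, paralogs included, lower in Harr than in Chx and below their class medians. Their median change was -1.17, and 7 passed 1 downwards. From WT to Harr all 10 were again below their class medians, and 5 passed 1 downwards, where 14.7% of all genes did. Arpc1a had 7002, 538 and 5446 CDS reads in Chx, Harr and WT (-1.28, SE 0.06, Harr over Chx), and Actr2 6412, 484 and 5031 (-1.31, SE 0.07). Coding words of 6 of the 10 recur in other genes, 17.2% of those of Arpc1a, 27.5% of Actr2 and up to 76.6% (Actr3).

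The 7 adaptors of growing ends and adhesions had a median change of 0.98, and all lay above their class medians, by a median difference of 0.62. With WT as the reference 6 lay above and 1 below, with a median difference of 0.33. Tln2, which links integrins to actin, had a change from Chx to Harr of 1.17 (SE 0.05), whereas Evl was at -0.03 (SE 0.08). Of 20 capping, severing and monomer-binding genes 7 were lower by at least 1 and 1 higher, where 14% and 4.64% of all genes were, and the median was -0.57. Against their class medians 6 lay above and 14 below, with a median difference of -0.18. From WT to Harr 8 lay above and 12 below, with a median difference of -0.38. Dstn, another member of the cofilin family, had 9885, 554 and 10104 reads and was lower by a log2 ratio of -1.74 (SE 0.06), while Cap1 (0.37) and the cofilin kinase Limk1 (1.24, SE 0.09) were higher.

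The 4 other actin isoforms with enough reads lay below their class median from Chx to Harr, by a median difference of -1.69, and from WT to Harr 1 lay above and 3 below. From Chx to Harr the remaining lists lay closer to their class medians. Of 17 nucleation promoting factors and formins 7 were above and 10 below, and the WAVE complex genes Nckap1 and Cyfip2 were at 0.21 each. Of 19 bundlers and crosslinkers 9 were above, with Actn4 at 1.48 (SE 0.04) and Fscn1 at -0.53 (SE 0.03). Of 14 membrane linkers 7 were above. Sptan1 and Sptbn1, the spectrins of the cortical lattice, were at 1.59 and 1.65 and Gap43 at -0.97, the last with 38843, 3709 and 36616 reads. Of 9 myosin genes 5 were above, with Myh10 at 0.77, Myo5a at 0.38 and Myl6 at -0.37. From WT to Harr these tallies were 10 of 17, 8 of 19, 5 of 14 and 2 of 9 above. The median difference of the myosins (-0.30) was then close to that of the Arp2/3 list (-0.31), and that of the capping and severing list was lower (-0.38). Between Chx and WT the lowest value of the set was that of Myl6, at -0.68 (SE 0.04, Chx over WT), and 79.1% of Myl6 coding words are shared with other genes. Among genes with at least 200 reads in the pair, Cyfip2 (0.63, SE 0.03) and Acta2 (0.53, SE 0.17, 191 and 109 reads) gave the highest.

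Where a pair of libraries held 200 or more CDS reads of a gene, the muscle actin genes Acta1 and Actc1 had the lowest changes of the wider set from Chx or WT to Harr. Acta1 had 2980, 152 and 2980 CDS reads in Chx, Harr and WT and Actc1 1338, 41 and 1148, with changes from Chx to Harr of -1.87 (SE 0.12) and -2.59 (SE 0.23). Acta2, with 191, 20 and 109 reads, was at -0.80 (SE 0.34). Neither Acta1 nor Actc1 had a read in its 5′ UTR in any library. Of the coding words 11.7% (Acta1) and 3.88% (Actc1) occur in other genes, 7.67% and 0.970% in Actb. How many of the reads came from Actb or Actg1 was not tested.

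**Figure D5:**
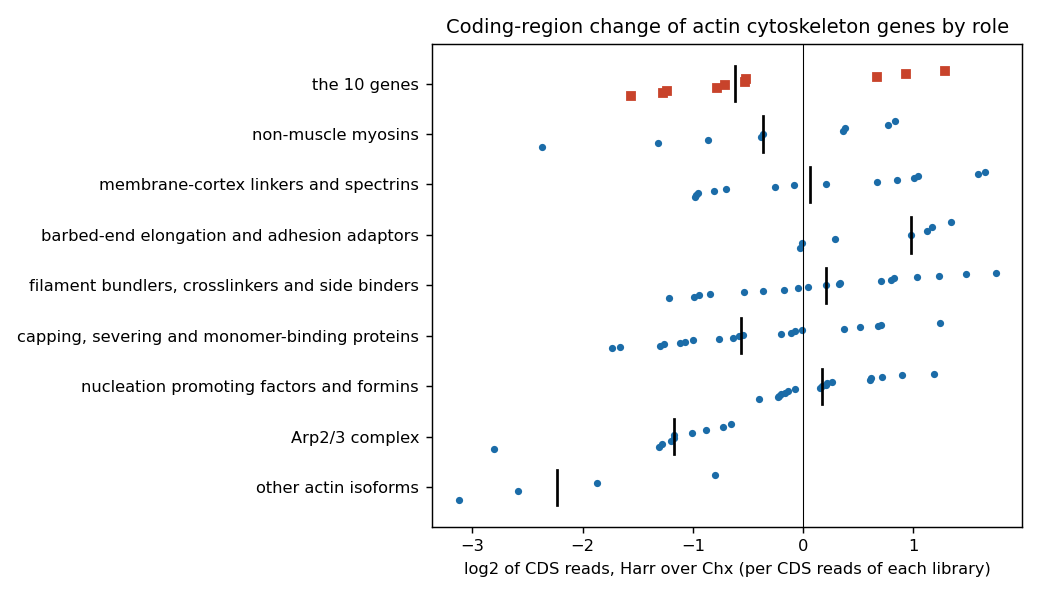
Log2 ratio of CDS reads from Chx to Harr, per CDS reads of each library, for each gene of 8 role lists of the actin cytoskeleton (points) and for the 10 genes (squares), with the median of each list as a bar. All 10 genes of the Arp2/3 list lie below 0, and the 10 genes split into 7 below and 3 above.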

How the data were processed

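The members and gene lists were chosen with earlier results of these data known. Libraries were grouped by the recorded treatment. The free-text descriptions of the samples name input and pulldown fractions of depolarized neurons, in conflict with the recorded treatment, and were not used. Per the file headers, the authors ran Plastid on mm10 alignments from which ribosomal reads and duplicates had been removed, and deposited counts of reads per exon segment, taken at the 5′ end with an offset of 0 and for reads of 25 to 100 nt. The deposited coverage signal is that count per nucleotide of segment. RPKM in the deposited tables divides each count by segment length in kilobases and by the library's aligned reads in units of 1000000. The study's methods name Rsubread for footprints counted with Plastid, and TopHat with several alignments allowed per read for its ORF search. Which aligner made these tables, and how it treated such reads, is not given in the sources used here. The study's methods describe counting from the 3′ end for its search for ORFs, which these tables do not follow.

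Only counts were used, with 35722483 (Chx), 9754412 (Harr) and 30219197 (WT) aligned reads. Of 142446 transcript identifiers 99.07% matched GENCODE M21, which is on the same build. Segments were summed per region on the longest transcript. UTR:CDS changes were log2 odds ratios with 0.5 added to each count, where a pair of libraries held 10 or more reads in both regions. CDS changes were log2 ratios per CDS reads, where the 3 libraries together held 100 or more, with standard errors from counts. A change was counted from 1 on the log2 scale. First and last coding segments of at least 30 nt were set against the rest of the CDS, a measure added after the data had been seen. Words of 25 bases were searched on either strand in all GENCODE M21 transcripts. Named genes were the 10 members, the 2 genes of each wider list with the most CDS reads, and over these lists the 2 highest and 2 lowest CDS ratios per pair of libraries among genes with at least 200 reads, of which 1 is not reported here. Alternatives were 5 added to each count, other minimums (50 and 1000 reads), other scalings, the transcript with the most reads, UTRs that overlap no CDS, and the CDS without its start codon segment. Scripts were tested on simulated counts and used Python 3.11.15, numpy 2.4.6, pandas 2.3.3 and scipy 1.17.1.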

Additional observations from a re-analysis of the deposited data

How the results depend on the processing

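No paired analysis was possible because each treatment has 1 library. Per aligned read instead of per CDS read, the members higher by at least 1 from Chx to Harr went from 1 to 0 and those lower from 3 to 7 (also 7 from WT to Harr), where 0.559% of all genes were higher and 31.4% lower (29.1% from WT to Harr). In the wider lists 3 genes were higher and 38 lower from Chx to Harr (median -0.67), and 1 higher and 35 lower from WT to Harr (median -0.67), while the medians of all genes were -0.60 and -0.51. The same scaling gave the wider lists a median of 0.023 for Chx over WT. Without the start codon segment 5 of the 9 members with enough reads were lower by at least 1 from Chx to Harr and 5 from WT to Harr, where 21% and 21.9% of 10179 genes were. In Cfl1, Cfl2 and Tmsb4x that segment is 3 bases long and held no read, so leaving it out removed no read from them. Under that choice Actb minus Actg1 was 0.14 (Harr over Chx), -0.062 (Harr over WT) and -0.20 (Chx over WT), Pfn1 minus Pfn2 was 0.024 (Harr over Chx) and -0.066 (Harr over WT), and for Chx over WT Actb was at -0.044 and Pfn2 at -0.063. No value could be given for Tmsb4x minus Tmsb10, since no Tmsb10 CDS read lies outside its first segment. On the transcript with the most reads no member was higher by at least 1 from Chx to Harr (0), Tmsb4x minus Tmsb10 was 0.20 (Harr over Chx), -0.12 (Harr over WT) and -0.32 (Chx over WT), and the Tmsb4x 5′ UTR:CDS change for Chx over WT was -0.59. Scaled by the median of ratios, the CDS changes of Actb, Actg1 and Marcks for Chx over WT were -0.033, -0.014 and -0.028. With 5 added to each count, or at least 50 reads per region, 0 instead of 1 wider gene had a 5′ UTR:CDS ratio lower by at least 1 in Chx than in WT. Of the summary values 4 reversed direction and 19 moved. The other 196 summary values kept their direction and stayed within 1.5 times (counts) or within the interval of the main value. Of the changes of single members 309 stayed within their counting interval, 57 moved beyond it in the same direction and 6 reversed direction. The cause of these shifts was not tested. Depth limits the 3′ UTR values, which rest on as few as 6 reads in Chx (Actg1 and Pfn1), and the values of single coding segments, which rest on as few as 1 read in Harr (Dbn1).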
